A study of Mus musculus with 9 samples.

Results

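Solute carriers are the membrane proteins named Slc that move ions, metals, amino acids, sugars, nucleotides, vitamins and metabolites across the plasma membrane and the membranes of organelles. The genes described here were the symbols of the count table that begin with Slc and a number, chosen by their name and their summed read count: rows of a symbol were added, and at least 90 counts over the 9 libraries were required. Slc2a1, Slc2a6, Slc16a3, Slc7a1, Slc7a2 and Slc7a11 were left out by name. Of 24061 symbols, 374 matched the pattern, 6 were left out by name, 209 fell under the minimum and 159 remained as members. Of the 209, 104 had no read in any library. Slc22a17 with 81 counts, Slc25a29 with 82 and Slc9a3r2 with 87 lay just outside the minimum, and Slc35g2 with 90, Slc37a1 with 90 and Slc30a4 with 94 just inside it. The 159 members came from 41 families and included 4 symbols named after a carrier that are not carriers themselves (Slc2a4rg-ps, Slc4a1ap, Slc7a6os and Slc9a3r1).

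Families are numbered by sequence relation, and a family usually shares a type of substrate. Most Slc25 proteins exchange metabolites across the inner mitochondrial membrane, and Slc30 and Slc39 proteins export and import zinc. Slc35 proteins carry nucleotide sugars into the endoplasmic reticulum and Golgi. Macrophages use carriers of this kind to recycle iron from red cells, to withhold or supply metals in phagosomes, and to pass the products of digestion out of lysosomes.

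The RNA-seq experiment used bone-marrow-derived macrophages (BMDMs), primary cells of C57BL/6J mice that were cultured in L-cell conditioned medium for 7 days and then deprived of serum for a day. All groups had 3 libraries and were exposed for 3 hr to an agent or to the solvent DMSO in serum-free medium. The groups were DMSO vehicle alone (Veh), DMSO followed by 10 ng/mL LPS, a bacterial agonist of TLR4, for 2 hr (LPS), and 500 nM T0901317 (T0), an agonist of the nuclear receptor LXR, followed by the same LPS (T0+LPS). Replicates were individually differentiated cultures; the time at which Veh was harvested was not given in the sources used here, so LPS against Veh may also differ in time in culture. T0 without LPS was not analysed here.

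Libraries held 13299044 to 16467983 counted reads, and 1.37% to 1.54% of them fell on the members. Levels below are CPM, counts relative to library size after TMM scaling, and a change is the fitted log2 fold change of edgeR's quasi-likelihood test, called at a Benjamini-Hochberg adjusted p under 0.05 over all symbols tested. Reads on bases shared by several rows were not in the counts, so 17 members were measured on under 25% of their exonic bases. Of 7 macrophage markers in the table, 6 reached 1 CPM and Itgam, with 3 unshared bases, had no read. Markers of neutrophils, T and B cells, dendritic cells, erythroid cells, fibroblasts and mast cells summed to at most 3.37 CPM for any of these lists in any library. These sums cover only what could be counted: S100a9, Cd8a, Kit, Alas2 and the globins Hba-a1, Hbb-bs and Hbb-bt had at most 45 unshared bases and no read. Il1b rose by 9.34 (log2) with LPS, and the LXR targets Abca1 and Abcg1 rose by 1.47 and 2.09 with T0. In bulk RNA, fewer cells of a type and less RNA per cell cannot be told apart.

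Levels between genes were compared as CPM per kb of exonic bases that no other row covers. On this scale the highest member was Slc15a3, a lysosomal peptide and histidine carrier, with 491 over the 9 libraries. It was followed by the taurine carrier Slc6a6 with 444, the mitochondrial phosphate carrier Slc25a3 with 330 and the phagosomal metal carrier Slc11a1 with 295. In Veh the order differed: Slc6a6 stood first, and Slc25a3, Slc15a3 and Slc11a1 followed it, with Slc15a3 and Slc11a1 closer to each other than their spread. The adenine nucleotide carriers Slc25a5 (177) and Slc25a4 (156), the heme carrier Slc48a1 (173), the zinc importer Slc39a1 (119), the glutamine carrier Slc38a2 (100) and the fatty acid carrier Slc27a1 (95.1) completed the top 10. Slc25a5 and Slc48a1 differed by less than the shift either showed between groups. Slc25a4 and Slc25a5 are near copies of each other, and how reads matching both were counted was not given in the sources used here. The same 10 genes ranked highest when all exonic bases were used as the length.

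**Figure D1:**
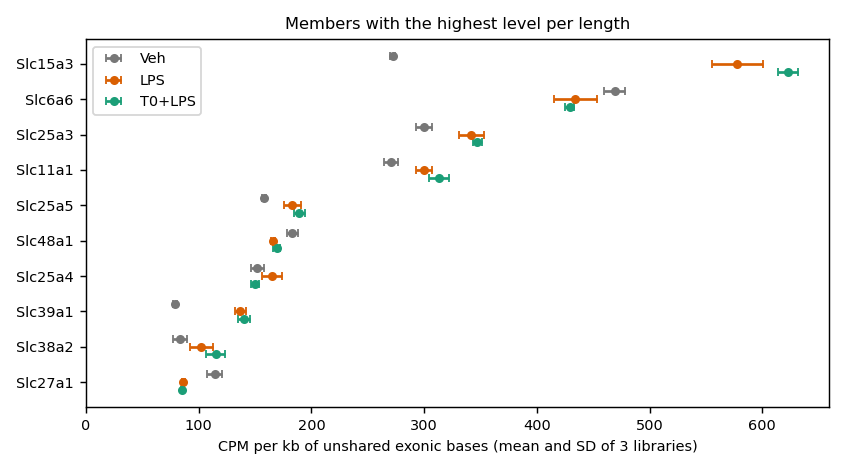
Level per length of the 10 highest members, in CPM per kb of unshared exonic bases on a linear axis; points are means of 3 libraries and bars are SD, coloured by group. Slc15a3 stands apart between Veh and both LPS-stimulated groups, while the Veh, LPS and T0+LPS points of Slc25a4 lie close together.

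The comparison of LPS with Veh addressed which carriers changed 2 hr after the macrophages met LPS. All 159 members were tested, and 43 were higher, 63 were lower and 53 were not called. This was 66.7% of the members, against 64.1% of all 9559 symbols tested (32.9% higher and 31.2% lower), so the share called was near the background. The direction leaned to lower levels, with a median log2 change of -0.06 over the members and -0.00 over all symbols. With scaling by library totals alone, 26 members were higher and 94 lower, the members' median was -0.34 and that of all symbols -0.28. Rises close to or smaller than this shift of the median depend on the scaling, also where this is not repeated below. At 1.5-fold or more, 48 members were called, with a share of 29.9% among all symbols; 14 were at least 2-fold higher and 13 at least 2-fold lower (15.5% of all symbols in either direction). The groups did not overlap for 109 members (68.6%, against 67.3% of all symbols). Of the 53 members not called, 35 had a confidence interval inside 1.5-fold in either direction.

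**Figure D2:**
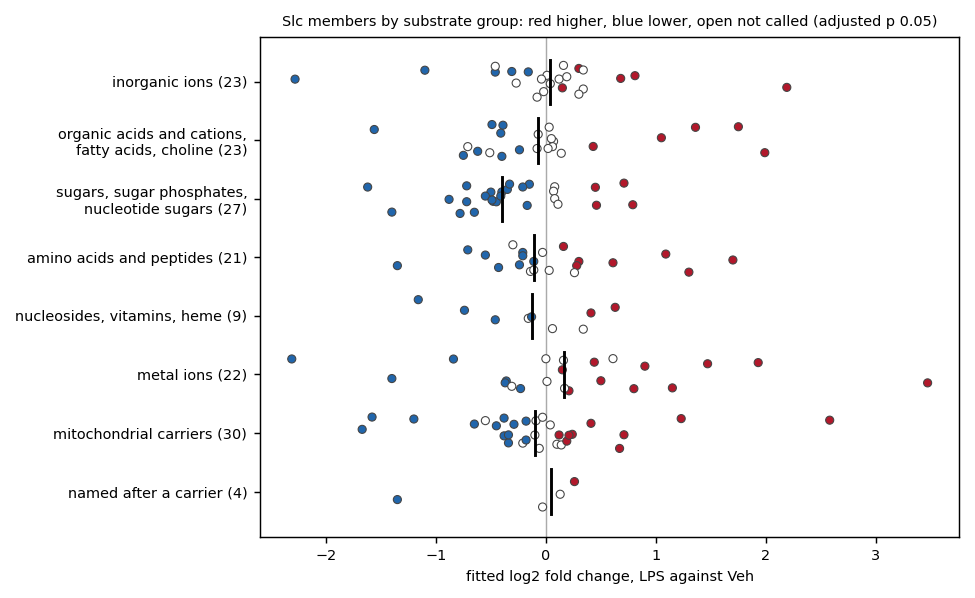
Fitted log2 fold change of LPS against Veh for each of the 159 members, in rows by substrate group with the number of members; red points were called higher, blue lower and open points not called, and black bars are group medians. Sugar and nucleotide sugar carriers lie mostly below 0 (median -0.40), and metal ion carriers spread widest, from -2.31 to 3.47.

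Carriers of metal ions moved in both directions, with 10 of 22 higher, 6 lower and a median log2 change of 0.17. In this group 72.7% were called, against 64.1% of all symbols. Among those that handle iron, the single known cellular iron exporter fell and 2 importers rose. Slc40a1, which encodes that exporter, ferroportin (chromosome 1, 45908070 to 45925594, minus strand of mm10), was at 218, 192 and 191 CPM in the Veh libraries, 38, 40.6 and 41.8 CPM in LPS and 58.8, 53.4 and 51.8 CPM in T0+LPS. The 3 groups did not overlap, and LPS stood lowest. Its log2 change with LPS was -2.31 (standard error 0.06, adjusted p = 7.3e-15). Ferroportin and ferritin transcripts carry a stem-loop in the 5′ UTR, and the transferrin receptor transcript carries several in the 3′ UTR, that bind iron regulatory proteins. The matches found in GENCODE M21 transcripts are shown because they set the exporter beside the storage and uptake genes described next. Capitals mark the loop, CAGTG followed by A, C or T. The search asked for a C, 5 bases, the loop and 5 bases pairing with the first 5, where G with T counted as a pair.
Slc40a1 5′ UTR, chr1:45925464-45925493, minus strand: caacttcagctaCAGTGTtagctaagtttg
Fth1 5′ UTR, chr19:9982732-9982761, plus strand: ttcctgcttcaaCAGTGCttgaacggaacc
Ftl1 5′ UTR, chr7:45459778-45459807, minus strand: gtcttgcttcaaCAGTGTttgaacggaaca
Tfrc 3′ UTR, chr16:32631219-32631248, plus strand: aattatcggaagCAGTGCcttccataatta
Tfrc held 4 such matches, of which the first is printed. A match occurred in 222 of 21877 protein-coding genes (1.01%) and in 4 of 158 members (Slc35e1, Slc40a1, Slc4a3 and Slc6a6). The search allowed no other shape of the stem. The lack of a match, as for Slc11a2, therefore does not show that the element is absent. The ferritin genes Fth1 and Ftl1 were not called, with log2 changes of 0.08 and 0.01. Tfrc rose by 0.26 (adjusted p = 0.00091), a rise small enough to depend on the scaling.

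Slc11a2, which encodes the iron importer DMT1, was at 64.0, 57.8 and 65.0 CPM in Veh, 137, 144 and 134 CPM in LPS and 147, 140 and 142 CPM in T0+LPS. All 6 stimulated libraries lay above the 3 Veh libraries (log2 change with LPS 1.15, standard error 0.05, adjusted p = 1.4e-11). Slc39a14, which encodes the zinc and non-transferrin iron importer ZIP14, was at 0.588, 0.595 and 0.521 CPM in Veh and 6.02, 6.41 and 6.64 CPM in LPS. Its log2 change of 3.47 (standard error 0.21, adjusted p = 3.2e-10) was the largest of any member and rested on 281 unshared bases, 5.4% of its exonic length. Slc11a1, the natural resistance-associated metal carrier of phagosomes, was high in every library and differed little, with a log2 change of 0.15 that became -0.13 with library totals. Inside the cell, Slc25a37, which encodes mitoferrin-1, the importer of iron into mitochondria, was at 42.4, 43.3 and 41.3 CPM in Veh, 247, 235 and 275 CPM in LPS and 203, 228 and 217 CPM in T0+LPS. Every stimulated library exceeded every Veh library by more than 4-fold (log2 change with LPS 2.58, standard error 0.06, adjusted p = 1.2e-15). Its paralog Slc25a28, mitoferrin-2, was not called, with a log2 change of 0.14 (adjusted p = 0.067). Slc25a37 is also used by developing red cells; the erythroid list (5 of 7 genes at 0) summed to 0.481 to 0.637 CPM in Veh, at most 0.232 CPM in LPS and at most 0.457 CPM in T0+LPS. Of the genes at 0, Alas2 and the 3 globins could hardly be counted, as given above, and the part of red cell precursors in the Slc25a37 level was not tested.

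Copper carriers rose. Slc31a1, the high-affinity copper importer, was at 89.3, 86.4 and 87.8 CPM in Veh, 236, 236 and 257 CPM in LPS and 247, 275 and 247 CPM in T0+LPS (log2 change with LPS 1.47, standard error 0.05, adjusted p = 9.9e-14). Slc31a2, its relative, went from 2.20 ± 0.156 CPM to 8.38 ± 0.524 CPM (SD, n = 3), a log2 change of 1.93 measured on 13% of its exonic bases. Both members of this family were therefore higher.

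Zinc carriers divided by direction of transport only in part. Slc30a1, which encodes the plasma membrane zinc exporter ZnT1, was at 220, 229 and 217 CPM in Veh, 80.3, 86.4 and 85.2 CPM in LPS and 101, 90.9 and 86.7 CPM in T0+LPS. All stimulated libraries were below all Veh libraries (log2 change with LPS -1.40, standard error 0.05, adjusted p = 1.5e-13). Zinc induces Slc30a1 and the metallothionein genes through the factor MTF1 and metal response elements, so the promoter is shown with its match to that element in capitals (250 bases before the RefSeq start on GRCm38.p6, plus strand).
Slc30a1 promoter, chr1:191906531-191906780: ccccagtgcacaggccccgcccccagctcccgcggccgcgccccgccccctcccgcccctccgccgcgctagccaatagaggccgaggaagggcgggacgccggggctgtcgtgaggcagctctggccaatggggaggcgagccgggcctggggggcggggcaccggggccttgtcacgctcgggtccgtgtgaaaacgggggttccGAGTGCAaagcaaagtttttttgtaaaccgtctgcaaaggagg
The match, to TGCACNC or TGCGCNC on either strand, lay on the reverse strand 43 bases before the start. Such a match occurred in 21.4% of 32851 promoters, and in 37% of the lower members and 41.7% of those not called. The metallothionein genes moved the other way: Mt1 rose by 0.63 and Mt2 by 3.94, the latter from 2.37 ± 0.403 CPM to 36.4 ± 6.08 CPM (SD, n = 3, adjusted p = 6.6e-13), and Mtf1 rose by 0.29. Among zinc importers Slc39a1 rose by 0.80, from 184 ± 4.47 CPM to 321 ± 11.6 CPM (SD, n = 3), while Slc39a10 and Slc39a3 fell by 0.36 and 0.37. Slc30a7 and Slc30a9 rose by 0.50 and 0.21 and Slc30a5 fell by 0.23, all on the log2 scale. Of the magnesium carriers, Slc41a2 rose by 0.90 and Slc41a1 fell by 0.84.

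**Figure D3:**
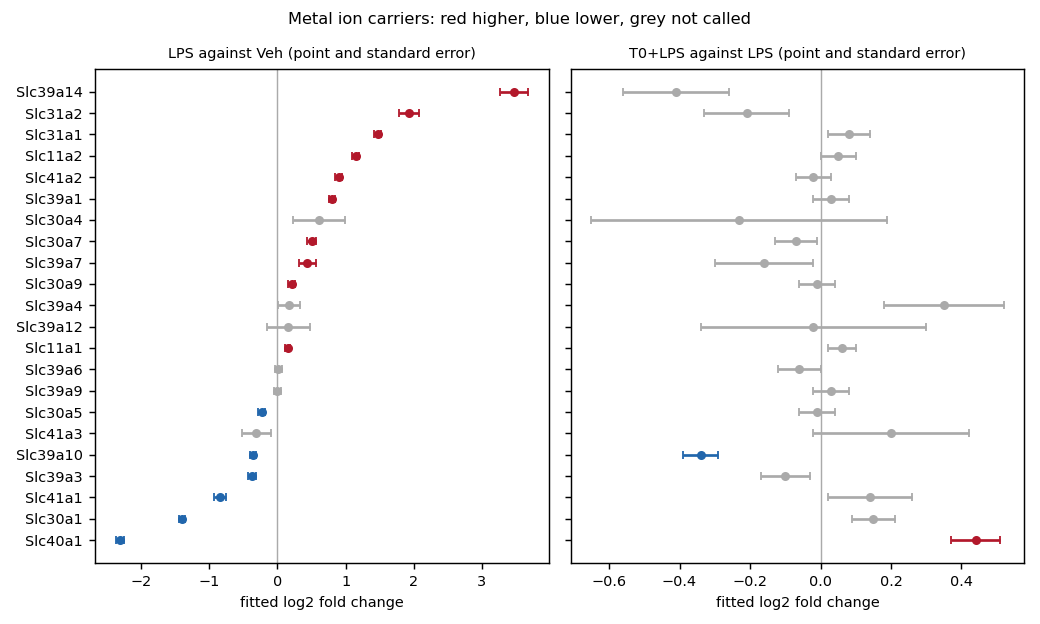
Fitted log2 fold change with its standard error for the 22 metal ion carriers, LPS against Veh on the left and T0+LPS against LPS on the right, each panel with its own horizontal scale; red was called higher, blue lower and grey not called. The left panel runs from -2.31 (Slc40a1) to 3.47 (Slc39a14), and on the right Slc40a1 (0.44) and Slc39a10 (-0.34) were called; both comparisons use the same LPS libraries.

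Sugar, sugar phosphate and nucleotide sugar carriers were mostly lower, with 19 of 27 lower, 4 higher and a median log2 change of -0.40. The share called was 85.2%, against 64.1% of all symbols (31.2% lower). The group was formed by family, and the substrates of several of its Slc35 members are not known. Slc2a1 and Slc2a6, glucose and hexose carriers left out by the rule, were higher by 1.97 and 3.30, and are not in that count. The sugar carriers Slc2a3, Slc2a8 and Slc50a1 fell by 0.65, 0.50 and 0.21. All 3 members of the Slc37 family were lower. Of these, Slc37a1 lay at the count minimum (0.891 CPM in Veh and 0.487 CPM in LPS, adjusted p = 0.041). Slc37a4, the glucose 6-phosphate carrier of the endoplasmic reticulum, went from 23.5 ± 1.13 CPM to 14.2 ± 0.519 CPM (SD, n = 3, log2 change -0.72, adjusted p = 8.2e-07), and Slc37a3 fell by 0.78. Slc37a2 was under the minimum, with 57 unshared bases.

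In the Slc35 family 11 of 19 members were lower and 4 higher (31.2% and 32.9% among all symbols). The CMP-sialic acid carrier Slc35a1 fell by 0.40 and the GDP-fucose carrier Slc35c1 by 0.48, while Slc35a3, the UDP-N-acetylglucosamine carrier, rose by 0.71, from 66.7 ± 2.19 CPM to 109 ± 7.79 CPM (SD, n = 3, adjusted p = 1.4e-08). The largest decrease of the group was that of Slc5a3, the sodium-coupled carrier of myo-inositol, an organic osmolyte. It was at 199, 137 and 166 CPM in Veh and 48.7, 50.1 and 64.1 CPM in LPS. The Veh libraries spread widely but remained above LPS (log2 change -1.62, standard error 0.12, adjusted p = 3.2e-09). Slc45a4 fell by 1.40 and was measured on 24.8% of its exonic bases.

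Amino acid and peptide carriers gave 7 of 21 higher and 8 lower (71.4% called, against 64.1% of all symbols). Slc15a3 was at 618, 607 and 616 CPM in Veh, 1349, 1317 and 1250 CPM in LPS and 1414, 1424 and 1385 CPM in T0+LPS, more than 2-fold above Veh in all 6 libraries (log2 change with LPS 1.09, adjusted p = 6.3e-13). Its relative Slc15a4, which serves endosomal Toll-like receptor signalling, differed by 0.16 (-0.12 with library totals). Slc7a8, which encodes the neutral amino acid exchanger LAT2, went from 44 ± 1.93 CPM to 143 ± 10.5 CPM (SD, n = 3, log2 change 1.70). Slc7a5, which encodes LAT1, was at 4.12, 4.96 and 5.39 CPM in Veh and 8.32, 11.6 and 15.5 CPM in LPS. The LPS libraries of Slc7a5 spread almost 2-fold, yet none overlapped Veh (log2 change 1.30, standard error 0.19, adjusted p = 1.5e-05). The heavy chain that LAT1 and LAT2 need, Slc3a2, was not called (0.03, adjusted p = 0.85) and was measured on 18% of its bases.

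At the lysosome, the proton-coupled amino acid exporter Slc36a1 fell by 1.35 and Slc38a9, the arginine sensor of the mTORC1 pathway, by 0.71. The glutamine carriers Slc38a2 and Slc1a5 had log2 changes of 0.30 and -0.03, and the former was not called with library totals (0.02, adjusted p = 0.79). The genes of the amino acid response, driven by ATF4, were set beside these because ATF4 controls several amino acid carriers. Of 12 tested, 8 were higher and 1, Pck2, was lower (75% called, against 64.1% of all symbols, of which 32.9% were higher). Nupr1 rose by 4.08, Chac1 by 3.88 and Mthfd2 by 1.40. The other higher genes, Asns, Trib3, Ddit4, Phgdh and Atf5, rose by 0.48 to 0.90. Ddit3 (-0.80), Psph (-0.13) and Sesn2 (0.03) were not called. Atf4 itself had 37 counts on 283 unshared bases and was not tested, so its level cannot be read from these counts. Slc6a12, a carrier of betaine and GABA, rose by 0.61, and Slc6a6, of taurine, differed by -0.11; these take up organic osmolytes as Slc5a3 does, and their changes differed in sign. The call for Slc6a6 was lost in 4 of 6 fits without 1 library (adjusted p up to 0.12, without Veh replicate 2).

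**Figure D4:**
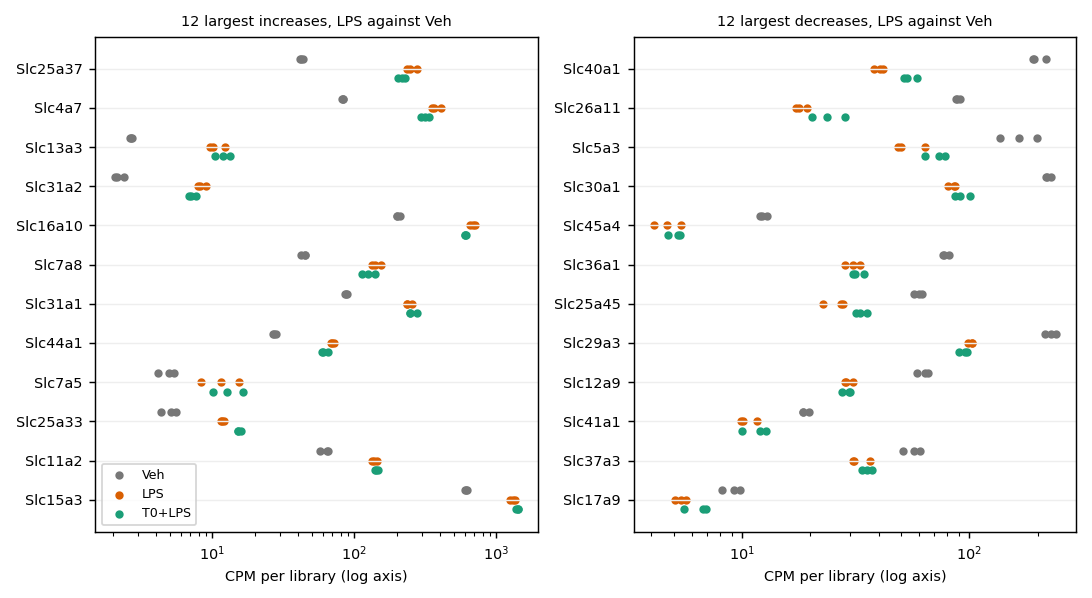
CPM in each library on a log axis for the 12 largest increases (left) and 12 largest decreases (right) of LPS against Veh, among called members with groups apart and a mean of at least 5 CPM; grey is Veh, orange LPS and green T0+LPS. In every row the 3 LPS points lie apart from the 3 Veh points, as the choice of these genes required.

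The 30 genes of the Slc25 family, grouped by family as mitochondrial carriers, gave 9 higher and 12 lower (70% called, against 64.1% of all symbols). Besides mitoferrin-1, Slc25a33, a pyrimidine nucleotide carrier, went from 5.51, 4.36 and 5.10 CPM in Veh to 12, 11.6 and 11.7 CPM in LPS and 15.1, 15.8 and 15.1 CPM in T0+LPS. The 3 groups were fully separated (log2 change with LPS 1.23, adjusted p = 1.5e-07). The dicarboxylate carrier Slc25a10 rose by 0.71, the NAD carrier Slc25a51 by 0.41 and the citrate carrier Slc25a1 by 0.24 (-0.04 with library totals). The carnitine-acylcarnitine carrier Slc25a20 was not called (-0.03, standard error 0.06). Slc25a45 fell by 1.20, from 59.5 ± 2.39 CPM to 25.9 ± 2.78 CPM (SD, n = 3), and the low Slc25a27 and Slc25a42 fell by 1.67 and 1.58 from 3.19 and 3.81 CPM.

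Of 23 carriers of inorganic ions, 5 were higher and 5 lower, so 43.5% were called, against 64.1% of all symbols. Slc4a7, which encodes the sodium-bicarbonate cotransporter NBCn1, was at 83.1, 82.7 and 81.6 CPM in Veh, 351, 364 and 410 CPM in LPS and 297, 316 and 336 CPM in T0+LPS. The 3 groups were separated, with LPS highest (log2 change with LPS 2.19, standard error 0.06, adjusted p = 4.1e-15). Slc26a11, a carrier of sulfate and chloride, was at 90.6, 86.9 and 88.2 CPM in Veh, 19.4, 17.9 and 17.3 CPM in LPS and 28.5, 20.4 and 23.6 CPM in T0+LPS. All stimulated libraries lay far below Veh (log2 change with LPS -2.28, adjusted p = 5.5e-15). Slc12a9 fell by 1.10. The phosphate carrier Slc20a1 differed by 0.30, a call lost with library totals, and the chloride cotransporter Slc12a2 (0.12) was not called.

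Of 23 carriers of organic acids, organic cations, fatty acids and choline, 5 were higher and 8 lower. The share called was 56.5%, against 64.1% of all symbols. Slc16a10, a carrier of aromatic amino acids in a family of monocarboxylate carriers, was at 210, 201 and 200 CPM in Veh, 691, 657 and 705 CPM in LPS and 600, 599 and 612 CPM in T0+LPS. It was separated in all 3 groups and more than 2-fold above Veh in every stimulated library (log2 change with LPS 1.75, adjusted p = 2.6e-15). Slc13a3, a dicarboxylate carrier, rose from 2.68 ± 0.0426 CPM to 10.7 ± 1.43 CPM (SD, n = 3, log2 change 1.99), and Slc44a1, a choline carrier, rose by 1.36. The lactate and pyruvate carrier Slc16a1 was not called (0.14, adjusted p = 0.16). Slc27a1 fell by 0.40, and Slc17a9, the vesicular nucleotide carrier, by 0.75. In the last group, of nucleosides, vitamins and heme, 2 of 9 were higher and 4 lower (66.7% called, against 64.1%). The lysosomal nucleoside exporter Slc29a3 fell by 1.16, from 227 ± 13.5 CPM to 101 ± 2.67 CPM (SD, n = 3), the lysosomal Slc46a3 by 0.74 and the heme carrier Slc48a1 by 0.13. The vitamin C importer Slc23a2 rose by 0.41 and the nucleoside importer Slc28a2 by 0.63.

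Of the 31 families with several members, 15 had calls in both directions. Among all symbols 32.9% were called higher and 31.2% lower, so unrelated genes would also give mixed calls. The count was not compared with such sets. The 29 Abc symbols over the same minimum, most of which encode ATP-driven membrane transporters, gave 9 higher and 14 lower. This was 79.3% called, against 64.1% of all symbols. Abce1, Abcf1 and Abcf3, which encode soluble factors of translation, were among the 9. The 5 tested symbols of the 6 left out by name were all higher, by 1.28 to 5.10, and are not in the counts above.

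Promoters were searched in the 250 bases before each RefSeq start of a symbol, on both strands, for 117 members present in the promoter table. The antioxidant response element, TGACNNNGC, which the factor NRF2 binds, matched in 13 of 35 higher members (37.1%), 6 of 46 lower members (13%) and 4 of 36 members not called (11.1%), against 11.5% of all 27025 symbols in that table. The counts are a description and were not tested. The windows of those among the 12 largest increases that held a match are shown with the match in capitals (its reverse complement where the match lies on the other strand), on GRCm38.p6. Of the 12, Slc25a37, Slc11a2, Slc15a3 and Slc7a5 were among the members with no promoter in that table and were not searched. The Slc4a7 window lies before an alternative start inside the gene, which begins at 14703025.
Slc4a7, chr14:14718703-14718743, plus strand: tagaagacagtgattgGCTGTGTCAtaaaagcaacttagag
Slc13a3, chr2:165473374-165473414, minus strand: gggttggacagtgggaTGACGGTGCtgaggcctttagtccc
Slc31a2, chr4:62286249-62286289, plus strand: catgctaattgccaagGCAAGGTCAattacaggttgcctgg
Slc25a33, chr4:149774275-149774315, minus strand: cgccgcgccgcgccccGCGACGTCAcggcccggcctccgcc
An NF-kB element matched in 1 of the 35 higher members (Slc6a12) and 1 of the 46 lower members (Slc37a4), against 1.65% of all symbols. The amino acid response element TGATGNAA matched in 0 of the 35, 1 of the 46 and 3.91% of all symbols, and TGANTCA, bound by AP-1, in 2 of the 35, 1 of the 46 and 7.82%. The metal response element matched in 31.4% of the higher, 37% of the lower and 41.7% of the uncalled members, against 23.8% of all symbols. For that element the members exceeded all symbols whatever their call.

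The comparison of T0+LPS with LPS addressed what the LXR agonist changed in stimulated cells. It shares the LPS libraries with the first comparison, so the values of both are not independent of each other. Of 156 members tested (Slc13a2, Slc35g2 and Slc37a1 were too low), 6 were higher and 3 lower. This was 5.77% of the members, against 3.18% of all 9348 symbols tested (1.35% higher and 1.83% lower). None was called at 1.5-fold or more (0.77% of all symbols were), and 122 had a log2 change within 0.2 of 0. The groups did not overlap for 30 members (19.2%, against 19.1% of all symbols), and 28 had an unadjusted p under 0.05 (17.9%, against 13.9%). The sizes were small for the carriers as for all symbols, with a median absolute log2 change of 0.0955 and 0.0847. As a control of the treatment, the cholesterol exporters Abca1 and Abcg1 rose in the same libraries from 1840 ± 159 CPM to 5105 ± 185 CPM and from 381 ± 11.4 CPM to 1621 ± 46.4 CPM (SD, n = 3).

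Slc40a1 and Slc39a10 were the 2 members whose calls held in all 6 fits that left out a library. Slc40a1, with the library values given above, rose by 0.44 (standard error 0.07, adjusted p = 0.0016), 1.36-fold. It remained far under its Veh level, at 54.7 ± 3.65 CPM against 200 ± 15 CPM (SD, n = 3). Slc39a10, a zinc importer (chromosome 1, 46807544 to 46853509, minus strand of mm10), was at 139, 133 and 134 CPM in Veh, 106, 102 and 107 CPM in LPS and 80.2, 84.9 and 84.0 CPM in T0+LPS. Each step was downward with no overlap, and T0 changed it by -0.34 (standard error 0.05, adjusted p = 0.0012). Of the other iron genes, Hmox1, which encodes the heme-degrading enzyme heme oxygenase 1, was not called with LPS (-0.01) and rose by 0.33 with T0 (adjusted p = 0.0021), while Tfrc, Fth1 and Ftl1 were not called (0.19, -0.18 and 0.07).

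The other 7 calls were each lost in 3 to 6 of the 6 fits without a library. Slc5a3 rose by 0.40 (adjusted p = 0.03), to 78.3, 73.5 and 63.9 CPM in T0+LPS, where the lowest library overlapped the highest of LPS. Its call was lost in 4 fits (0.18 without LPS replicate 1). Slc25a45 rose by 0.37 (adjusted p = 0.026), from 22.7, 27.7 and 27.2 CPM to 35.5, 33.1 and 31.7 CPM, and lost the call in 3 (0.17 without LPS replicate 1). Slc25a33 rose by 0.39 and Slc25a28 by 0.27 (adjusted p = 0.034 for both), and both lost the call in all 6 and with DESeq2 (0.13 and 0.076). The Slc25a28 libraries were at 34.4, 35.2 and 34 CPM in LPS and 44.3, 40.7 and 40.3 CPM in T0+LPS, and did not overlap. Slc35f6 rose by 0.20, from 152 ± 5.08 CPM to 175 ± 2.96 CPM (SD, n = 3, adjusted p = 0.029), a call lost in 4 fits (0.15 without LPS replicate 1).

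Slc4a7 and Slc16a10, both raised by LPS, were lower by 0.24 and 0.18 (adjusted p = 0.039 and 0.034). Slc4a7 lost the call in 3 fits (0.16 without T0+LPS replicate 1) and Slc16a10 in 5 (0.19 without LPS replicate 1). Among the 6 raised members 4 had been lower with LPS than in Veh, and among the 3 lowered members 2 had been higher; both counts read the same LPS libraries. Mitochondrial carriers held 3 of the 6 increases among 30 genes (10%, against 1.35% of all symbols higher), and all 3 were among the calls lost above. None of the 21 amino acid and peptide carriers or the 9 carriers of nucleosides, vitamins and heme was called. No amino acid response gene of 11 tested was called either. With 3.18% of all symbols called, groups of these sizes often hold no call. Slc16a10 was grouped with its monocarboxylate family. Of the carriers left out by name, the cystine importer Slc7a11 and the glucose carrier Slc2a1 were lower by 0.34 and 0.20 (adjusted p = 0.0023 and 0.022). A direct repeat of the LXR half-site spaced by 4 bases (DR4) matched in 0 of the 8 called members with a promoter in the table. It matched in 4 of all 27025 symbols (0.0148%). So rare an exact match, sought in 250 bases alone, could hardly occur among 8 genes, and whether LXR sites lie near them was not tested. Slc26a11 lay just outside the threshold (0.41, adjusted p = 0.062), as did Slc25a37 (-0.22, adjusted p = 0.064). Slc39a14 (-0.41, adjusted p = 0.19) and Slc30a1 (0.15, adjusted p = 0.3) were not called, although the groups did not overlap for either.

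**Figure D5:**
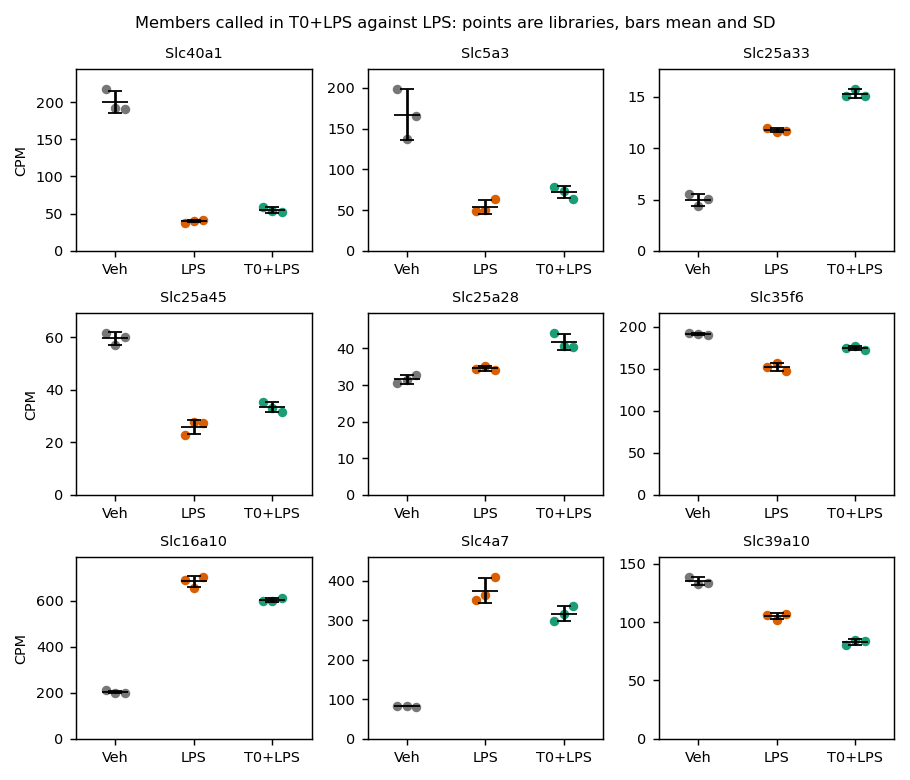
CPM in each library of the 9 members called in T0+LPS against LPS, in Veh, LPS and T0+LPS, each panel from 0; points are libraries and black bars the mean and SD of 3. T0+LPS lies above LPS in the first 6 panels, with 1 overlap (Slc5a3), and below it for Slc16a10, Slc4a7 and Slc39a10.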

How the data were processed

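Polyadenylated RNA of 9 BMDM libraries was sequenced. Per the study's methods, the authors trimmed reads with cutadapt, aligned them with HISAT2 to the mm10 transcriptome and used featureCounts to count them on RefSeq genes; the deposited table holds whole counts, not the normalized values the methods also mention, and has several rows for genes with several transcript models. The authors' comparison tables, with their own fold and p values or gene names, were not used. Reads on bases shared between rows, on either strand, are absent: 6696 rows with no unshared base held no read. Rows were summed by symbol (32850 rows, 24061 symbols). All tested symbols were fitted with edgeR 4.0.16 (R 4.3.3; filterByExpr, TMM, quasi-likelihood test, Benjamini-Hochberg adjustment, 2 groups at a time), and errors beside CPM are SD. The smallest two-sided exact p for 3 against 3 is 0.1, so no single-gene permutation test was used. On simulated data of 9343 genes for LPS against Veh, 83% of 1.5-fold changes were recovered, with 14 false calls (100 genes changed 1.5-fold and 100 changed 2-fold), and 87% with 12 false calls on 9212 genes for T0+LPS against LPS. The changed genes were drawn from well-counted genes, as many up as down, and with LPS were far fewer than the real calls. These rates therefore do not describe low members or the real share of changes. Replicates within a group differed beyond sampling noise. DESeq2 1.42.0, limma-voom 3.58.1, other scalings, filters, units, a replicate block and leaving out each library were alternatives.

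Members, lists and motifs were chosen with earlier results of these data known. Members were grouped by family. Named genes are the 12 largest called increases and decreases with LPS (groups apart, mean of at least 5 CPM), all members called with T0, the 10 highest per length, the extremes of each group, a list of carriers with known macrophage roles and the neighbours of the count minimum. Slc23a2, Slc25a10, Slc25a27, Slc25a42, Slc25a51, Slc30a7, Slc38a9, Slc46a3, Slc6a12, the symbols named after a carrier, those named for a motif match and the further sugar, zinc and magnesium carriers given with a value were named after their values were seen. A gene of the list of roles is not reported here. Totals of 13299044 to 16467983 counts set the precision.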

Additional observations from a re-analysis of the deposited data

How the results depend on the processing

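With scaling by library totals, 26 members were higher with LPS in place of 43 (94 lower in place of 63), and log2 changes reversed for Slc4a1ap (-0.02), Slc11a1 (-0.13), Slc15a4 (-0.12), Slc3a2 (-0.25), Slc16a1 (-0.15), Slc25a1 (-0.04) and Slc12a2 (-0.16); TMM factors are what this setting leaves out. Leaving out 1 library gave 39 to 42 higher and 56 to 65 lower members with LPS, and 1 to 5 higher and 1 to 4 lower with T0, in place of 6 and 3. With T0, a single higher member was left when LPS replicate 1 or T0+LPS replicate 1 was dropped, and a single lower one when LPS replicate 3 or either of the first 2 T0+LPS libraries was dropped. Small changes reversed without Veh replicate 2 (Slc3a2 -0.03 and Slc1a5 0.01) and without LPS replicate 3 (Slc3a2 -0.09); over these fits Slc3a2 ranged from -0.09 to 0.11 and Slc1a5 from -0.06 to 0.01, and neither was called. The cause of these differences was not tested. Replicate numbers did not pair the samples (correlations of deviations -0.0466 to 0.0533); the replicate block gave 40 higher and 61 lower with LPS and 7 and 4 with T0, and Slc6a6 had an adjusted p of 0.054. DESeq2 gave 38 and 55 with LPS and 4 and 4 with T0. The fit to all 9 libraries lost Slc5a3 with T0 (adjusted p = 0.08). An adjusted p under 0.10 gave 44 and 65 with LPS, and 7 and 4 with T0. Depth limits the low members: 6 had under 30 summed counts in at least 1 group.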

Other observations

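Iron-related members were spread over several compartments, and their values stand side by side here with no test of the set. With LPS the log2 change was -2.31 for the plasma membrane exporter Slc40a1, 1.15 for the importer Slc11a2, 3.47 for the importer Slc39a14, 2.58 for the mitochondrial importer Slc25a37 and 0.14, not called, for its paralog Slc25a28. With T0 the same genes had 0.44, 0.05, -0.41, -0.22 and 0.27, of which Slc40a1 and Slc25a28 were called, the latter in no fit that left out a library.

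Among the 4 symbols named after a carrier, Slc2a4rg-ps was at 4.13 ± 0.893 CPM in Veh, 1.63 ± 0.37 CPM in LPS and 2.75 ± 0.16 CPM in T0+LPS (SD, n = 3). It was lower with LPS by edgeR's quasi-likelihood test (log2 change -1.35, adjusted p = 7.7e-05), and its change of 0.75 with T0, the highest of any member tested, was not called (adjusted p = 0.11).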
